A study of Solanum lycopersicum with 21 samples.

Results

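The leaf response of tomato to the peptide BP178 was measured at 24 h after spraying, against plants that were sprayed with water only. The comparison takes 6 of the 21 arrays of the series, 3 of BP178 plants and 3 of the non-treated control (NTC) of experiment 1, and all 67795 probe sets of the GeneChip Tomato Gene ST array. A probe set is a group of short probes that reads one transcript. Plants of cv. Rio Grande were sprayed to run-off with BP178 at 125 µM or mock-sprayed, and each array held RNA pooled from 10 plants. BP178 is a hybrid antimicrobial peptide that joins BP100, itself a short cationic peptide, to a fragment of magainin from frog skin, with an endoplasmic reticulum retention signal at its end. Other arrays of the series are used beside it: those of plants sprayed with flg15, a fragment of bacterial flagellin, at 125 µM with an NTC of their own in experiment 2, and those of plants of experiment 1 given salicylic acid (SA) at 2.5 mM, jasmonic acid (JA) at 2.5 mM, or ethylene. The samples are whole leaves, in which fewer cells of a type and less RNA per cell cannot be told apart.

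Plants sense microbial molecules such as flagellin or chitin through receptor kinases at the cell surface, and respond within hours by changing the transcription of defense genes. Many of these genes code for pathogenesis-related (PR) proteins, which are secreted into the space between the cells and include enzymes that cut fungal and bacterial walls, proteases, protease inhibitors and membrane-active proteins. SA, JA and ethylene carry the signal onward, and transcription factors of the ERF, WRKY and NAC families switch on the responding genes. Phenolic compounds, terpenoids and oxidized lipids are made in parallel as antimicrobial substances or signals.

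BP178 raised 84 probe sets (0.124% of the 67795) and lowered 9 (0.0133%) by the criteria of the comparison, which ask for a fold change (FC) of 2 in either direction and for an adjusted p (limma, Benjamini-Hochberg) under 0.05. The FC of the raised probe sets ran from 2.01 to 14.53, and it was at least 4 for 23 of them. Without the adjustment, 4927 probe sets (7.27%) had a p under 0.05, 2716 of them higher and 2211 lower. The FC passed 2 without the adjusted p in 74 other probe sets on the higher side and 42 on the lower side, and the adjusted p passed with a smaller FC in 35 and 10. Leaf transcripts were high in both groups. The small subunit of Rubisco (RBCS-1) had a mean of 11.52 in NTC and 11.48 in BP178, and the light-harvesting protein CAB4 12.52 and 12.45, on the log2 scale. Of the 5 fruit and flower markers, PG2, ACS2, E8-6 and TDR4 stayed below the background line described next, and Psy1 did not (8.33 and 7.99).

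The level of each transcript was set against a background line, drawn at 1 log2 unit above the median of the arrays of a group, since most probe sets on the array are dim. The medians of the 6 arrays lay between 2.66 and 2.81, and the line at 3.76 for NTC and 3.72 for BP178. In NTC 18794 probe sets (27.7%) had a mean at or above the line, in BP178 18799, and in both 17994. Among the 84 raised probe sets, 53 were above the line already in NTC and 31 were below it. Of the 23 with an FC of at least 4, 12 were below it, including the one with the largest FC. After BP178 the mean of 82 was above the line. The exceptions were PR1b1 and the splicing factor CLF1, whose means were below the line in both groups. The 31 that were below the line in NTC have no measured starting level, so their FC may be set by background, and the height of their BP178 mean above the line is a lower bound of the FC. That bound was at least 2 for 14 of them and under 2 for 15 of those that reached the line. All 9 lowered probe sets were above the line in NTC, and 8 of them also after BP178.

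**Figure D1:**
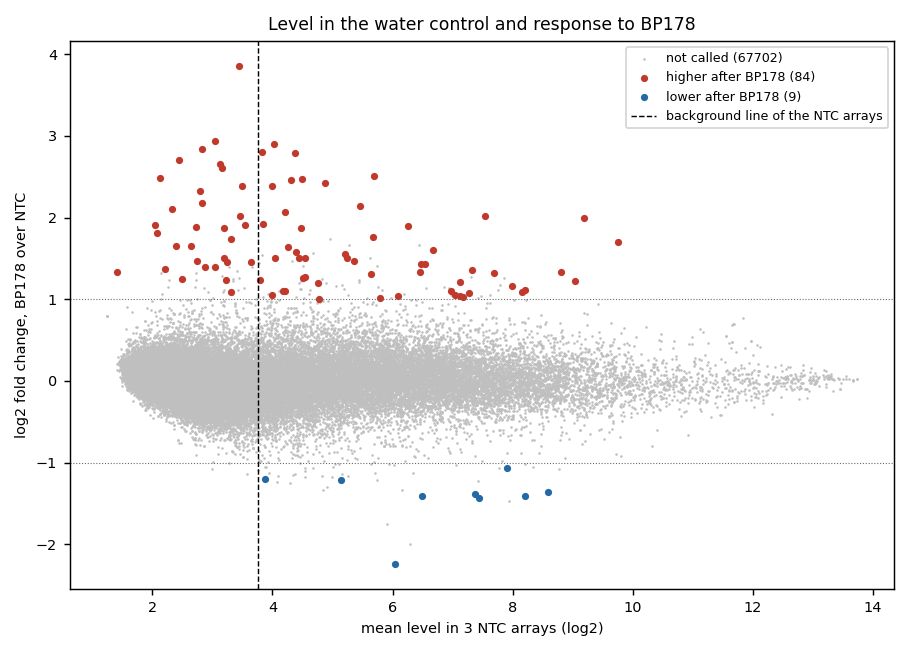
Each point is a probe set, with the mean log2 level in the 3 NTC arrays on the horizontal axis and the log2 FC of BP178 over NTC on the vertical axis. The 84 raised probe sets (red) spread from below the background line (dashed, 3.76) to a level of 9.76, and the 9 lowered ones (blue) are all to the right of the line.

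The raised transcripts came from different starting levels. The highest in NTC was the glucanase LOC101261650 at 9.76, followed by CHI3 and a barwin-type chitinase, and 6 of the 84 had an NTC mean of 8 or more. The median level of the 84 was 4.29 in NTC and 5.98 in BP178. At the other end, CLF1, a pre-mRNA splicing factor (Solyc03g007560), read 1.35, 1.44 and 1.46 in NTC and 1.72, 3.46 and 3.06 in BP178. Its replicate 1 of BP178 was only slightly above the NTC arrays, and no array of either group reached the background line. Its call (FC 2.52, log2 FC 1.33, SE 0.27, adjusted p = 0.0496) ended without any one of NTC replicate 1 (adjusted p = 0.181), NTC replicate 2 (adjusted p = 0.184), NTC replicate 3 (adjusted p = 0.128), BP178 replicate 2 (adjusted p = 0.291) or BP178 replicate 3 (adjusted p = 0.267).

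The replicates of BP178 resembled each other slightly more than those of NTC. Over the 11940 probe sets with a mean level above 5 across all arrays, the correlation between arrays was 0.981 to 0.983 within NTC, 0.985 to 0.987 within BP178, and 0.968 to 0.978 between the groups, as a description across genes, which are not independent. All 3 BP178 arrays were above all 3 NTC arrays in 5438 probe sets (8.02%) and below them in 4612 (6.8%). All 84 raised and all 9 lowered probe sets were among these. In 37 of the 84 the lowest BP178 array was at least 1 log2 unit, that is 2-fold, above the highest NTC array, and no other probe set of the array showed such a gap (0.0546%). On the lower side 5 probe sets had it (0.00738%), 4 of them called. The calls used the same values, so these gaps describe the calls and do not test them.

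The spread of the raised probe sets was wider than that of others. The median SD over 3 arrays was 0.32 in NTC and 0.27 in BP178 for the 84, and 0.18 and 0.16 for all probe sets above the line in NTC. The NTC arrays had the larger SD in 55 of the 84. NTC replicate 2 was the lowest NTC array in 52 of the 84, with a median deviation of -0.25 from the group mean, against 0.09 for each of the other replicates. BP178 replicate 3 was the lowest BP178 array in 57 of the 84, with a median deviation of -0.19. Over all 67795 probe sets the median deviation of every one of these arrays was within 0.02 of 0.

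Leaving out NTC replicate 2 brought the number of raised probe sets to 47, and leaving out BP178 replicate 2 brought it to 49. Without 1 of the other arrays it was 61 to 80. Of the original 84, 40 kept their call under each of the 6 omissions, 3 lost it under 1 omission and 41 under 2 or more. Leaving out NTC replicate 2 ended 39 calls and leaving out BP178 replicate 2 ended 36. Of the 37 probe sets with a gap of at least 1 log2 unit, 31 kept the call throughout. The number of lowered probe sets ran from 6 to 12, and 4 of the 9 kept the call throughout. With the 6 arrays fitted alone, 41 were raised, 36 of them among the 84.

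**Figure D2:**
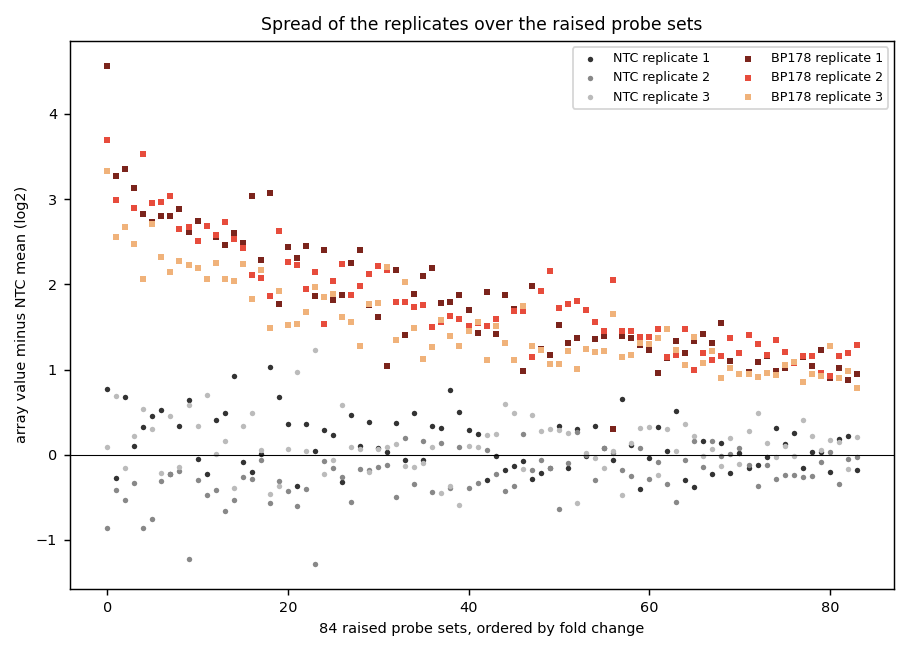
Each raised probe set is a position on the horizontal axis, ordered from the largest FC on the left, and the 6 points above it are the 3 NTC arrays (circles) and the 3 BP178 arrays (squares), as the log2 value minus the NTC mean. No square falls below a circle of the same probe set, NTC replicate 2 is mostly the lowest circle (52 of 84) and BP178 replicate 3 mostly the lowest square (57 of 84).

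Enzymes that cut chitin and glucan, polymers of fungal walls, made up 8 of the 84 raised probe sets: 7 chitinases and a glucan endo-1,3-beta-glucosidase of the PR2 type. All but 1 were above the background line in NTC. An endochitinase (Solyc02g061770) read 2.77, 2.63 and 3.73 in NTC and 6.32, 6.03 and 5.60 in BP178. The groups were far apart, although only NTC replicate 3 came near the background line, and the BP178 mean was 4.65-fold above that line (FC 7.67, log2 FC 2.94, SE 0.29, adjusted p = 8.23e-05). A second chitinase (Solyc04g072000) was above the line in every array, at 4.27, 4.02 and 5.19 in NTC and 7.17, 7.18 and 6.56 in BP178. Its NTC replicate 3 was the highest of the control arrays and still lay well below BP178 (FC 5.57, log2 FC 2.48, SE 0.35, adjusted p = 0.00217).

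CHI3, an endochitinase (Solyc02g082920), had the widest control spread among the 84. It read 9.24, 7.91 and 10.42 in NTC and 11.05, 11.33 and 11.16 in BP178. The BP178 arrays were close together and the NTC arrays differed by 2.51 log2 units, with replicate 2 lowest and replicate 3 highest (FC 3.98, log2 FC 1.99, SE 0.35, adjusted p = 0.0162). The call ended without NTC replicate 1 (adjusted p = 0.0602), BP178 replicate 1 (adjusted p = 0.0524), BP178 replicate 2 (adjusted p = 0.109) or BP178 replicate 3 (adjusted p = 0.0706). The glucanase LOC101261650 read 10.25, 9.42 and 9.61 in NTC and 11.65, 11.50 and 11.25 in BP178, among the brightest of the raised transcripts. Its groups were separated by 1.0 log2 unit and its call held under every omission (FC 3.26, log2 FC 1.71, SE 0.22, adjusted p = 0.00079). A chitinase with a barwin domain (Solyc01g097270), the PR4 type, read 9.20, 8.90 and 9.02 in NTC and 10.45, 10.23 and 10.12 in BP178. Within each group the arrays agreed within 0.33 log2 units (FC 2.35, log2 FC 1.23, SE 0.15, adjusted p = 0.000426).

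The other chitinases changed less. An acidic chitinase of glycoside hydrolase family 18 (Solyc05g050130) had an FC of 2.85 (adjusted p = 0.00641), and its call ended without NTC replicate 2 (adjusted p = 0.0674). A chitinase (Solyc10g055800) and an endochitinase transcript (LOC101261280), which RefSeq lists as a pseudogene, had an FC of 2.04 and 2.01 (adjusted p = 0.0311 and 0.0311), just inside the threshold. These calls ended under 5 and 4 of the 6 omissions, with an adjusted p of up to 0.218 without NTC replicate 2 and 0.224 without BP178 replicate 2. The probe sequences were not used here, so signal shared between near-identical chitinases cannot be told apart. Other chitinase probe sets with a symbol did not pass: CHI9, an endochitinase, had a log2 FC of 0.60 (adjusted p = 0.517) and CHI17 of 0.24 (adjusted p = 0.863).

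Other secreted proteins of the PR type accounted for 11 raised probe sets. The largest change among them was in a non-specific lipid-transfer protein (Solyc08g007460), a small protein that carries lipids and belongs to the PR14 type. It read 4.71, 3.50 and 3.87 in NTC and 7.38, 6.69 and 6.70 in BP178. BP178 replicate 1 was the highest array and the groups were 1.99 log2 units apart at their nearest (FC 7.46, log2 FC 2.90, SE 0.44, adjusted p = 0.00337). A second lipid-transfer protein (Solyc08g067550) read 4.14, 3.78 and 3.63 in NTC and 6.25, 5.38 and 5.70 in BP178. Its arrays also lay clearly apart, and both calls held under all omissions (FC 3.81, log2 FC 1.93, SE 0.22, adjusted p = 0.000426).

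Ribonuclease LE (rnale), which degrades RNA and is secreted, read 2.90, 2.90 and 3.58 in NTC and 5.92, 6.16 and 5.27 in BP178. The NTC arrays were all under the background line and the BP178 mean 4.07-fold above it (FC 6.32, log2 FC 2.66, SE 0.38, adjusted p = 0.0021). The related rnalx had a log2 FC of 0.14 (adjusted p = 0.967). A PR10 protein of the Bet v I fold (Solyc09g090980) read 2.08, 1.84 and 2.47 in NTC and 4.87, 4.64 and 4.32 in BP178. Here too the control signal was background, and the bound on the increase was only 1.80-fold although the fitted change was larger (FC 5.59, log2 FC 2.48, SE 0.30, adjusted p = 0.000481). TSI-1, another Bet v I protein, read 1.65, 1.75 and 1.59 in NTC and 2.19, 2.27 and 3.05 in BP178. All its arrays were under the line and its FC was below 2 (log2 FC 0.84, SE 0.17, adjusted p = 0.0363).

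The 3 raised osmotin-like proteins, antifungal proteins of the PR5 type, have consecutive locus numbers on chromosome 8, with the raised protease inhibitor ER1 as the locus before them. Osmotin-like Solyc08g080640 read 7.90, 7.14 and 7.58 in NTC and 10.00, 9.48 and 9.22 in BP178. All arrays were well above background and the groups were apart (FC 4.07, log2 FC 2.02, SE 0.30, adjusted p = 0.00298). Solyc08g080650 was brighter, at 9.47, 8.64 and 8.34 in NTC and 10.21, 10.26 and 9.96 in BP178. Its NTC replicate 1 came within 0.49 log2 units of the lowest BP178 array (FC 2.52, log2 FC 1.33, SE 0.25, adjusted p = 0.0266). Solyc08g080660 read 6.49, 4.90 and 5.01 in NTC and 8.53, 7.32 and 6.96 in BP178. Replicate 1 was the highest in both groups, which were separated by 0.47 log2 units (FC 4.41, log2 FC 2.14, SE 0.42, adjusted p = 0.0356). The call of Solyc08g080650 ended without NTC replicate 2 (adjusted p = 0.159), NTC replicate 3 (adjusted p = 0.145), BP178 replicate 1 (adjusted p = 0.109), BP178 replicate 2 (adjusted p = 0.162) or BP178 replicate 3 (adjusted p = 0.0613). The call of Solyc08g080660 ended without NTC replicate 2 (adjusted p = 0.233), NTC replicate 3 (adjusted p = 0.17), BP178 replicate 1 (adjusted p = 0.196) or BP178 replicate 2 (adjusted p = 0.103).

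Both raised PR1 proteins, secreted proteins that bind sterols and are widely used as markers of defense, were less steady. PR1a (Solyc01g106620) read 7.43, 6.28 and 6.30 in NTC and 8.46, 8.30 and 8.06 in BP178. NTC replicate 1 stood more than 1 log2 unit above the other control arrays (FC 3.04, log2 FC 1.60, SE 0.32, adjusted p = 0.0436). PR1b1 read 2.56, 1.92 and 2.18 in NTC and 3.58, 3.78 and 3.42 in BP178, below the background line on all arrays but BP178 replicate 2 (FC 2.59, log2 FC 1.37, SE 0.26, adjusted p = 0.0266). The call of PR1a ended without NTC replicate 2 (adjusted p = 0.255), NTC replicate 3 (adjusted p = 0.192), BP178 replicate 1 (adjusted p = 0.181), BP178 replicate 2 (adjusted p = 0.195) or BP178 replicate 3 (adjusted p = 0.1). That of PR1b1 ended without NTC replicate 2 (adjusted p = 0.184), NTC replicate 3 (adjusted p = 0.0923), BP178 replicate 1 (adjusted p = 0.0909), BP178 replicate 2 (adjusted p = 0.171) or BP178 replicate 3 (adjusted p = 0.0662). The uncharacterized locus next to PR1a, Solyc01g106630, read 3.77, 3.38 and 3.48 in NTC and 5.37, 5.59 and 5.43 in BP178. It was even within each group, and its call held under all omissions (FC 3.77, log2 FC 1.91, SE 0.22, adjusted p = 0.000424).

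The group also held a plant basic secretory protein (Solyc01g080800, FC 3.50, adjusted p = 0.0255) and a protein annotated as a disease resistance response protein of the dirigent type (Solyc10g055200, FC 2.77, adjusted p = 0.0134). The first ended below the threshold under 5 of the 6 omissions, with an adjusted p of up to 0.183 without BP178 replicate 2, and the second under 3, with up to 0.106 without NTC replicate 2. Of the 16 symbols listed for PR and secreted defense proteins, all were on the array, 10 were above the line in either group, 5 rose (0.124% of all probe sets did) and 0 fell (0.0133%). The median log2 FC of the list was 0.59, against -0.01 for all probe sets. The list was written with earlier results of these data known, so these values describe it and test nothing. Among the 11 that were not called, CEVI-1, a peroxidase, had a log2 FC of 0.95 (adjusted p = 0.423), the subtilase PR-P69 -0.22 (0.941) and the PR4 protein PR-P2 0.59 (0.103). The listed symbols PR-1a1, P4 and PR-5 had -0.19 (0.937), 0.16 (0.903) and -0.08 (0.983). Their means were below the background line in both groups.

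Proteases and their inhibitors formed a group of 6 raised probe sets. Among the proteases were 3 subtilases, serine proteases of which the P69 family acts in the space between cells. P69G (Solyc08g079900) read 4.91, 3.46 and 3.61 in NTC and 6.60, 6.52 and 6.02 in BP178. Its NTC replicate 1 was the highest control, and the groups were still 1.11 log2 units apart (FC 5.24, log2 FC 2.39, SE 0.34, adjusted p = 0.00226). P69B (Solyc08g079870), a close neighbour, read 4.56, 4.33 and 4.54 in NTC and 6.09, 6.70 and 6.26 in BP178. The control arrays agreed within 0.23 log2 units (FC 3.66, log2 FC 1.87, SE 0.27, adjusted p = 0.00211). Another subtilase (LOC101252733) had an FC of 2.70 (adjusted p = 0.0305), and its call ended without NTC replicate 2 (adjusted p = 0.199), BP178 replicate 1 (adjusted p = 0.124) or BP178 replicate 2 (adjusted p = 0.205).

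The cysteine protease pip1, a papain-like enzyme that is secreted and is a target of pathogen inhibitors, read 2.86, 2.87 and 2.90 in NTC and 4.12, 4.57 and 4.11 in BP178. The 3 control arrays were nearly equal and below the background line, and the BP178 mean was 1.42-fold above it (FC 2.63, log2 FC 1.39, SE 0.19, adjusted p = 0.00182). Among the inhibitors, ER1, of the potato inhibitor I family, read 3.57, 3.01 and 2.98 in NTC and 4.94, 5.30 and 4.95 in BP178. All BP178 arrays were above the line and all NTC arrays below (FC 3.68, log2 FC 1.88, SE 0.25, adjusted p = 0.00116). A Kunitz trypsin inhibitor (Solyc03g098740) had an FC of 2.47 (adjusted p = 0.0151), and its call ended under 5 of the 6 omissions, with an adjusted p of up to 0.132 without NTC replicate 2.

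Of 8 symbols for protease inhibitors and antifeedant enzymes of JA responses, ER1 was the 1 that rose (0.124% of all probe sets did) and 0 fell (0.0133%). Several of the others varied widely among replicates. The metallocarboxypeptidase inhibitor mcpi read 2.86, 3.12 and 7.17 in NTC and 3.23, 4.33 and 2.88 in BP178, so that the groups overlapped, with NTC replicate 3 far above all other arrays (log2 FC -0.90, SE 0.74, adjusted p = 0.895). Threonine deaminase (Td) read 8.65, 8.83 and 10.71 in NTC and 9.09, 9.84 and 8.43 in BP178 and also overlapped (log2 FC -0.28, SE 0.53, adjusted p = 0.975). Arginase 2 (ARG2) had a log2 FC of -0.58 with an SE of 0.42, and the leucine aminopeptidase LAPA2, which was bright in every array, -0.05 with an SE of 0.13. The protease inhibitor gene PIIF was below the line in both groups (1.96 and 1.92).

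The largest change of the whole comparison was in a transcript for lipid oxidation. A lipoxygenase annotated as a probable linoleate 9S-lipoxygenase (Solyc08g029000), which adds oxygen to polyunsaturated fatty acids, read 4.22, 2.58 and 3.54 in NTC and 8.01, 7.14 and 6.77 in BP178. Control replicates 2 and 3 were below the background line, and the lowest BP178 array was 2.55 log2 units above the highest control (FC 14.5, log2 FC 3.86, SE 0.37, adjusted p = 8.23e-05). The BP178 mean was 11.7-fold above the line. Of 10 symbols for lipoxygenases and JA synthesis, 7 were above the line in either group. Among the 10, 0 rose (0.124% of all probe sets did) and 0 fell (0.0133%), with a median log2 FC of 0.12. Allene oxide cyclase (aoc) read 8.60, 8.35 and 9.40 in NTC and 9.57, 9.68 and 9.21 in BP178, and NTC replicate 3 overlapped with BP178 (log2 FC 0.70, SE 0.20, adjusted p = 0.278). The 13-lipoxygenase loxD had a log2 FC of -0.54 (adjusted p = 0.358), loxC 0.54 (0.746) and allene oxide synthase (aos) -0.51 (0.808).

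The other 5 probe sets of lipid and ester metabolism were an acyl-CoA synthetase (Solyc02g082910, the locus before CHI3), a carboxylesterase (Solyc02g069800), a GDSL lipase (Solyc02g071620) and a pair of alpha/beta hydrolases (Solyc01g103650 and Solyc00g170200). The synthetase read 1.72, 1.78 and 2.63 in NTC and 3.92, 4.28 and 3.66 in BP178. It was at background in NTC and close to the line in BP178, so its bound was only 1.15-fold (FC 3.76, log2 FC 1.91, SE 0.24, adjusted p = 0.00079). The carboxylesterase was above the line in all arrays and its call held under all omissions (FC 2.30, adjusted p = 0.00547). The lipase and the hydrolases had an FC of 2.13, 3.0 and 2.75 (adjusted p = 0.0284, 0.0379 and 0.0106), and their calls ended under 5, 5 and 3 omissions, with an adjusted p of up to 0.205 without BP178 replicate 2, 0.191 without NTC replicate 3 and 0.0824 without NTC replicate 2.

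Phenolic chemistry was represented by 4 raised probe sets, and in each of them the lowest BP178 array was at least 1 log2 unit above the highest NTC array. A polyphenol oxidase D (LOC101258176), an enzyme that turns phenolics into reactive quinones, read 2.93, 2.50 and 3.04 in NTC and 5.95, 5.72 and 5.30 in BP178. All NTC arrays were below the background line and all BP178 arrays above (FC 7.14, log2 FC 2.84, SE 0.23, adjusted p = 8.14e-06). BCB (Solyc03g116700), a blue copper protein with the plastocyanin fold, read 6.72, 5.70 and 6.34 in NTC and 8.50, 8.12 and 7.81 in BP178. Replicate 2 was the lowest control (FC 3.71, log2 FC 1.89, SE 0.27, adjusted p = 0.00217). Its neighbouring locus Solyc03g116690, another blue copper protein, had a log2 FC of 1.24 and did not pass (adjusted p = 0.0591).

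Hydroxycinnamoyl amides of tyramine, which are built into walls at infection sites, are made by tyramine hydroxycinnamoyl transferases. THT1-3 (Solyc08g068730) read 4.57, 3.79 and 4.28 in NTC and 6.65, 6.47 and 5.74 in BP178. The groups were 1.17 log2 units apart, and the call (FC 4.21, log2 FC 2.07, SE 0.33, adjusted p = 0.00569) was lost only without NTC replicate 2 (adjusted p = 0.0593). The related acetyltransferase Solyc00g272810 was brighter and the more even of the pair, at 7.40, 7.39 and 7.16 in NTC and 8.72, 8.77 and 8.54 in BP178 (FC 2.56, log2 FC 1.36, SE 0.16, adjusted p = 0.000424). A further family member near THT1-3, Solyc08g068710, had a log2 FC of 0.45 and did not pass (adjusted p = 0.865).

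Terpenoid synthesis gave 3 raised probe sets. A terpene synthase annotated both as an ent-kaurene synthase and as a geranyllinalool synthase-like protein (Solyc03g006550), which act on diterpene precursors, read 2.84, 2.77 and 2.88 in NTC and 5.12, 4.91 and 5.0 in BP178, with a gap of 2.03 log2 units between groups that were each very even (FC 4.52, log2 FC 2.18, SE 0.33, adjusted p = 0.00332). GGPS1, which makes the precursor geranylgeranyl diphosphate, read 2.33, 2.56 and 2.30 in NTC and 4.50, 4.15 and 3.52 in BP178. Control signal was background, and the bound was 1.23-fold (FC 3.15, log2 FC 1.66, SE 0.24, adjusted p = 0.0024). A germacrene C synthase-like transcript (LOC101268003), for a sesquiterpene, had an FC of 2.83 (adjusted p = 0.0363), and its call ended under 5 omissions, with up to 0.24 without NTC replicate 2. Of the 12 symbols listed for terpenoid precursors and synthases, GGPS1 alone was called (0.124% of all probe sets rose and 0.0133% fell). Its paralogue GGPS2 had a log2 FC of 0.20 (adjusted p = 0.902), farnesyl diphosphate synthase FPS1 -0.38 (0.827) and the plastid entry enzyme dxs -0.26 (0.818).

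Oxidoreductases and conjugating enzymes formed a group of 10 raised probe sets with a median log2 FC of 2.04. An aldo/keto reductase annotated as reductase 2 (Solyc03g098100) read 4.15, 2.96 and 4.35 in NTC and 6.65, 7.35 and 5.88 in BP178. Control replicate 2 was below the line and more than 1 log2 unit under the others (FC 6.99, log2 FC 2.81, SE 0.46, adjusted p = 0.007). Its call ended without NTC replicate 2 (adjusted p = 0.0716) or BP178 replicate 2 (adjusted p = 0.0766). A tropinone reductase-like short-chain dehydrogenase (Solyc04g054950) read 3.49, 2.96 and 3.02 in NTC and 6.04, 5.81 and 5.43 in BP178, with all controls below the line (FC 6.08, log2 FC 2.61, SE 0.31, adjusted p = 0.000426). A UDP-glycosyltransferase (Solyc03g078490), which attaches sugars to small molecules, read 5.36, 4.21 and 5.03 in NTC and 7.33, 7.59 and 6.94 in BP178. It was above the line on all arrays and its groups were 1.57 log2 units apart (FC 5.35, log2 FC 2.42, SE 0.31, adjusted p = 0.00079).

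An FAD-linked oxidase (Solyc02g079440) and a cytochrome P450 annotated as premnaspirodiene oxygenase-like (Solyc09g066400) followed, with an FC of 5.22 and 5.0 (adjusted p = 8.23e-05 and 0.000426). Both calls held under all omissions, and both transcripts had an NTC mean under the line, with bounds of 4.36-fold and 2.55-fold. The oxidase was the more even, with BP178 arrays at 5.99, 5.93 and 5.74, whereas the P450 had 5.82, 4.90 and 4.61. The remaining members were a short-chain dehydrogenase (Solyc12g045030, FC 3.40), a second P450 (Solyc04g078290, 2.93), a second glycosyltransferase (Solyc12g014010, 2.63), a glutathione S-transferase of detoxification (Solyc09g011630, 2.41) and an epoxide hydrolase (Solyc01g099910, 2.14). Their adjusted p was 0.0126, 0.00617, 0.0226, 0.0266 and 0.00209 in that order. Only the epoxide hydrolase kept its call under each omission, while the adjusted p of the others reached 0.12 without NTC replicate 2, 0.0657 without NTC replicate 2, 0.183 without BP178 replicate 2 and 0.181 without BP178 replicate 2. The 13 symbols of antioxidant enzymes, such as catalases, ascorbate peroxidases and superoxide dismutases, match 14 probe sets, all of them above the line. Of these 14, 0 rose (0.124% of all probe sets did) and 0 fell (0.0133%), and their median log2 FC was 0.05.

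Transport and vesicle traffic held 5 raised probe sets. A transcript annotated as a coatomer beta' subunit (Solyc03g120260), part of the coat of vesicles between the Golgi and the endoplasmic reticulum, read 4.82, 3.62 and 4.67 in NTC and 7.10, 7.32 and 7.07 in BP178. The BP178 arrays agreed within 0.25 log2 units and the groups were 2.25 apart (FC 6.94, log2 FC 2.79, SE 0.35, adjusted p = 0.00069). An ABC transporter annotated as ABCG11 (Solyc01g105450), a family member that exports lipids in Arabidopsis, read 6.34, 4.47 and 6.27 in NTC and 8.31, 8.37 and 7.92 in BP178. Control replicate 2 was far below the other controls, and the call held without it (FC 5.67, log2 FC 2.50, SE 0.33, adjusted p = 0.00111).

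The manganese transporter of the NRAMP family (Solyc03g116900) read 6.39, 6.45 and 6.80 in NTC and 7.86, 8.31 and 7.76 in BP178, with no array near background (FC 2.70, log2 FC 1.43, SE 0.21, adjusted p = 0.00334). A transporter of the major facilitator superfamily (Solyc01g096720) read 3.08, 2.85 and 4.42 in NTC and 5.76, 5.68 and 4.99 in BP178. NTC replicate 3 came within 0.57 log2 units of the lowest BP178 array, and the call (FC 4.07, log2 FC 2.02, SE 0.32, adjusted p = 0.00609) ended without NTC replicate 2 (adjusted p = 0.0619) or BP178 replicate 2 (adjusted p = 0.0528). An ABC transporter of the PDR type (Solyc09g091670) had a fitted FC of 2.37 (adjusted p = 0.0434). Its NTC mean of 2.50 was background and its BP178 mean of 3.75 only reached the line, so no change was measured above background. The call ended under 5 omissions, with up to 0.269 without NTC replicate 2.

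Proteins of cell wall remodelling gave 4 raised probe sets, with an FC from 2.07 to 3.69. A pectinesterase inhibitor-type protein (Solyc06g034370), of a family that restrains the removal of methyl groups from pectin, read 2.82, 2.56 and 2.79 in NTC and 5.13, 4.70 and 4.0 in BP178. Controls were even and at background, while the BP178 arrays spread over 1.13 log2 units (FC 3.69, log2 FC 1.88, SE 0.26, adjusted p = 0.00192). Peroxidase 4 (Solyc04g071890), a secreted enzyme that uses peroxide to cross-link wall polymers, read 6.57, 6.20 and 6.59 in NTC and 7.82, 7.91 and 7.62 in BP178. It was even within both groups, and its call held under all omissions (FC 2.51, log2 FC 1.33, SE 0.18, adjusted p = 0.00143). XTH6, which cuts and rejoins xyloglucan, and a pectinesterase (Solyc03g078090) had an FC of 2.23 and 2.07 (adjusted p = 0.032 and 0.0419). Each call ended under 5 of the 6 omissions, with an adjusted p of up to 0.207 without BP178 replicate 2 and 0.25 without NTC replicate 2. Of the 22 symbols for wall loosening, XTH6 was the 1 called (0.124% of all probe sets rose and 0.0133% fell). XTH5 and the expansin EXP2 had a log2 FC of 0.83 and 0.79 (adjusted p = 0.0771 and 0.0771).

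Receptors and signalling proteins gave 5 raised probe sets. A transcript annotated as a cysteine-rich receptor-like kinase (CRK) and also as a cysteine-rich repeat secretory protein (Solyc12g005720) read 2.97, 2.14 and 2.23 in NTC and 5.25, 5.42 and 4.77 in BP178. All controls were below the line, and the BP178 mean was 2.61-fold above it (FC 6.50, log2 FC 2.70, SE 0.36, adjusted p = 0.00132). A protein of the S-locus glycoprotein type with a mannose-binding lectin domain (Solyc07g062490) read 4.73, 3.90 and 4.32 in NTC and 6.87, 6.89 and 6.56 in BP178, and its groups were 1.84 log2 units apart (FC 5.49, log2 FC 2.46, SE 0.35, adjusted p = 0.00209). A harpin-induced protein (Solyc02g036480), a receptor-like kinase described as LysM-type (Solyc10g045610) and an SRC2-like protein with a C2 membrane-targeting domain (Solyc01g005420) had an FC of 3.14, 2.35 and 2.39 (adjusted p = 0.0152, 0.017 and 0.0065). Their calls ended under 3, 4 and 2 omissions, with an adjusted p of up to 0.137 without NTC replicate 2, 0.121 without NTC replicate 1 and 0.0689 without NTC replicate 2.

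The receptors and kinases of immunity that were listed by symbol did not pass the thresholds. Of 17 symbols, which match 18 probe sets, 15 probe sets were above the line in either group. Of the 18, 0 rose (0.124% of all probe sets did) and 0 fell (0.0133%), and the median log2 FC was 0.07. At these shares, 0 calls in a list this short tell little about the class. The mitogen-activated protein kinase MPK3 read 7.01, 6.91 and 7.31 in NTC and 6.33, 6.50 and 6.13 in BP178. The groups did not overlap, BP178 being lower, and the change did not pass (log2 FC -0.76, SE 0.17, adjusted p = 0.0771). Wfi1, an NADPH oxidase that makes reactive oxygen, read 7.94, 7.65 and 7.78 in NTC and 7.32, 7.55 and 7.19 in BP178, also without overlap (log2 FC -0.44, SE 0.15, adjusted p = 0.412). The co-receptors SERK3A and SERK3B had a log2 FC of -0.01 and 0.24 and the chitin receptor kinase Bti9 0.05 (adjusted p = 0.999, 0.906 and 0.983).

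Transcription factors made up 6 of the raised and 2 of the lowered probe sets. The raised ones were mostly dim: only ERF5 was above the background line in NTC. ERF1a (Solyc09g089930), an ERF of the kind that binds the GCC box of PR gene promoters, read 3.25, 3.51 and 3.18 in NTC and 4.72, 5.10 and 5.34 in BP178. Controls were below the line and close together, and the BP178 mean was 2.45-fold above it (FC 3.34, log2 FC 1.74, SE 0.21, adjusted p = 0.000481). The ERF annotated as ERF5 (Solyc04g078640) read 7.28, 7.76 and 8.00 in NTC and 8.97, 9.06 and 8.99 in BP178. The BP178 arrays agreed within 0.08 log2 units (FC 2.51, log2 FC 1.33, SE 0.20, adjusted p = 0.00337). The ERF061-like transcript (LOC101258880) read 3.18, 2.97 and 3.45 in NTC and 4.62, 4.80 and 4.71 in BP178, with a gap of 1.17 log2 units (FC 2.84, log2 FC 1.51, SE 0.20, adjusted p = 0.00132). These 3 calls held under all omissions.

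The other raised factors were less firm. An ERF of the 2b type (Solyc12g056980) read 2.93, 3.17 and 3.59 in NTC and 4.43, 4.70 and 4.28 in BP178 (FC 2.36, log2 FC 1.24, SE 0.23, adjusted p = 0.0275). It moved from below to just above the background line, as did the others. WRKY30 (Solyc08g082110), of a family that binds W boxes, read 3.45, 3.09 and 3.42 in NTC and 4.34, 4.52 and 4.37 in BP178 (FC 2.13, log2 FC 1.09, SE 0.21, adjusted p = 0.0284). A NAC factor (Solyc05g007770) read 2.67, 2.99 and 2.58 in NTC and 3.73, 4.43 and 4.49 in BP178 (FC 2.77, log2 FC 1.47, SE 0.25, adjusted p = 0.0128). Its BP178 replicate 1 stayed at the line. The call of the 2b-type ERF ended without NTC replicate 1 (adjusted p = 0.164), NTC replicate 2 (adjusted p = 0.139), BP178 replicate 1 (adjusted p = 0.0872), BP178 replicate 2 (adjusted p = 0.195) or BP178 replicate 3 (adjusted p = 0.0599). The call of WRKY30 ended under each of the 6 omissions, with an adjusted p of up to 0.189 without NTC replicate 2. The call of the NAC factor ended without NTC replicate 1 (adjusted p = 0.0636), NTC replicate 3 (adjusted p = 0.0634), BP178 replicate 2 (adjusted p = 0.107) or BP178 replicate 3 (adjusted p = 0.0955).

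Among the symbols of ethylene response factors, ERF4 and ERF1 had the largest log2 FC and neither passed. ERF4 read 7.93, 7.78 and 7.84 in NTC and 8.75, 9.51 and 9.06 in BP178. The groups did not overlap, and their SDs were 0.08 in NTC and 0.38 in BP178. The SE, which draws on the spread in all 21 arrays, was 0.44 (log2 FC 1.26, adjusted p = 0.434). One of the pair of ERF1 probe sets had a log2 FC of 0.95 (adjusted p = 0.403) and the other of 0.12 (adjusted p = 0.97), at a level near background. The 5 WRKY symbols had a median log2 FC of 0.30 and 0 calls (0.124% of all probe sets rose and 0.0133% fell). The probe set with the symbol ERF5, which is another than the raised ERF5-annotated locus, had a log2 FC of 0.07 (adjusted p = 0.988).

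**Figure D3:**
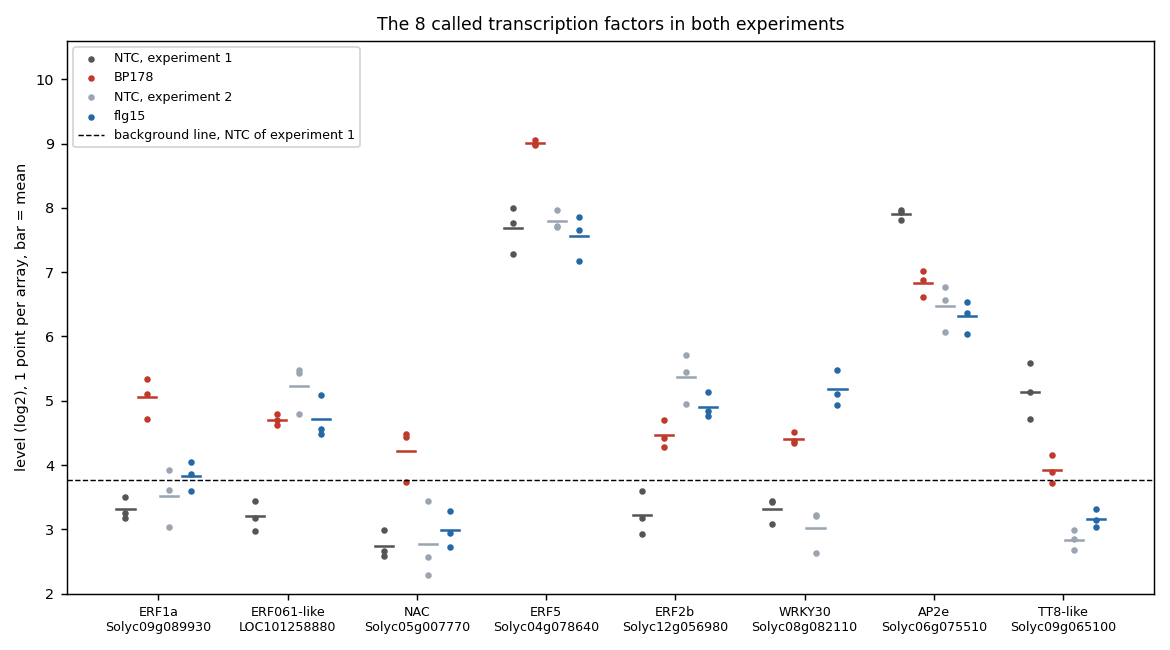
The log2 level of the 8 called transcription factors is shown for each array of NTC and BP178 of experiment 1 and of NTC and flg15 of experiment 2, with a bar at the mean of 3 arrays and the background line of NTC of experiment 1 (3.76, dashed). In experiment 1 the BP178 points of the 6 raised factors lie above the NTC points and those of AP2e and the TT8-like factor below them, while ERF061-like and ERF2b are as high or higher in NTC of experiment 2 than after BP178.

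Primary metabolism and cell upkeep gave 5 raised probe sets, with changes from 2.02 to 2.83-fold. A cysteine synthase (Solyc10g012370) read 4.32, 4.09 and 4.94 in NTC and 6.16, 6.13 and 5.56 in BP178, and its call held under all omissions (FC 2.83, log2 FC 1.5, SE 0.21, adjusted p = 0.00209). Glucose-6-phosphate dehydrogenase (LOC101249507), the entry of the pentose phosphate pathway that makes NADPH, read 6.13, 6.00 and 6.15 in NTC and 7.32, 7.06 and 7.01 in BP178. The NTC arrays agreed within 0.15 log2 units and the FC was just past the threshold (FC 2.05, log2 FC 1.04, SE 0.15, adjusted p = 0.0024), and fell under an FC of 2 without NTC replicate 2 (log2 FC 0.99) or BP178 replicate 1 (log2 FC 0.94). The mitochondrial NAD(P)H dehydrogenase NDB2 (LOC101252838) and the ubiquitin-conjugating enzyme UBC28 (LOC101264951) had an FC of 2.07 and 2.02 (adjusted p = 0.0266 and 0.0434), and their calls ended under 5 and 6 omissions, with up to 0.185 without NTC replicate 2 and 0.256 without BP178 replicate 2.

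A further 11 raised probe sets have no known function or no annotation here. Solyc12g017530 read 3.0, 2.02 and 1.96 in NTC and 4.10, 4.95 and 4.25 in BP178. The control signal was background, so its bound was only 1.59-fold, and the call ended under 5 omissions (FC 4.30, log2 FC 2.1, SE 0.41, adjusted p = 0.0343), with an adjusted p of up to 0.232 without BP178 replicate 2. Solyc05g012580 was brighter and more even, at 6.90, 7.29 and 7.19 in NTC and 8.43, 8.24 and 8.34 in BP178, and kept its call (FC 2.31, log2 FC 1.21, SE 0.18, adjusted p = 0.00337). The unannotated probe sets 20334925 and 20285639 had an FC of 3.11 and 2.16 (adjusted p = 0.0326 and 0.00859), and their calls ended under 6 and 2 omissions, with up to 0.169 without NTC replicate 3 and 0.0658 without BP178 replicate 2. Apart from Solyc01g106630 above, the other members had an FC between 2.05 and 2.85, and of these Solyc09g075110 kept its call under all omissions. The calls of the others ended under 2 to 5 omissions, with an adjusted p of up to 0.17 without BP178 replicate 1 for the TolB-like protein (Solyc06g008620), 0.291 without BP178 replicate 2 for LOC101246420, 0.269 without NTC replicate 2 for the unannotated probe set 20306797 and 0.154 without NTC replicate 2 for Solyc01g104690. Solyc12g008560 kept an adjusted p under 0.05 throughout, and its FC fell under 2 without NTC replicate 1 (log2 FC 0.93) or BP178 replicate 3 (log2 FC 0.92).

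The 9 lowered probe sets included several of flavonoid and anthocyanin synthesis, the route from phenylalanine to red and purple leaf pigments. A phenylalanine ammonia-lyase-like transcript (LOC101244220), for the first step of the route, read 8.33, 8.24 and 8.03 in NTC and 6.73, 6.87 and 6.78 in BP178. The groups were 1.16 log2 units apart and the call held under all omissions (FC 0.376, log2 FC -1.41, SE 0.21, adjusted p = 0.00298). Dihydroflavonol 4-reductase (DFR, Solyc02g085020) read 8.34, 8.56 and 8.84 in NTC and 7.26, 7.15 and 7.25 in BP178, and the BP178 arrays were nearly equal (FC 0.389, log2 FC -1.36, SE 0.27, adjusted p = 0.0436). Anthocyanidin synthase (ANS, Solyc08g080040), the step after it, read 7.43, 7.19 and 7.68 in NTC and 5.78, 6.02 and 6.20 in BP178, without overlap (FC 0.370, log2 FC -1.43, SE 0.24, adjusted p = 0.0105). A bHLH factor like TT8 (Solyc09g065100), which in Arabidopsis drives DFR and ANS, read 5.14, 4.71 and 5.58 in NTC and 3.72, 4.16 and 3.90 in BP178. It fell to about the background line (FC 0.430, log2 FC -1.22, SE 0.20, adjusted p = 0.00671).

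These calls were of different firmness. That of DFR ended under each of the 6 omissions, with an adjusted p of up to 0.207 without BP178 replicate 2. That of ANS ended without NTC replicate 3 (adjusted p = 0.0616), BP178 replicate 1 (adjusted p = 0.0728) or BP178 replicate 2 (adjusted p = 0.0549), and that of the TT8-like factor without NTC replicate 3 (log2 FC -1.0) or BP178 replicate 1 (adjusted p = 0.0555). Chalcone synthases and flavanone 3-hydroxylase, which act before DFR, had lower means and did not pass. Chalcone synthase CHS1 read 8.22, 7.94 and 8.47 in NTC and 7.16, 6.90 and 7.50 in BP178, with no overlap (log2 FC -1.02, SE 0.30, adjusted p = 0.301). CHS2 had a log2 FC of -0.52 (adjusted p = 0.578) and flavanone 3-hydroxylase F3H -0.71 (adjusted p = 0.362), both also without overlap. Of 9 symbols for flavonoid and phenylpropanoid genes 0 were called (0.124% of all probe sets rose and 0.0133% fell). In 4 of the 9 all BP178 arrays were below all NTC arrays (6.8% of all probe sets), and the median log2 FC was -0.10. The chlorogenic acid enzyme hqt (-0.13), the lignin enzyme CCR1 (0.06) and HCT6 (-0.03) had log2 FC close to 0 at high levels.

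The largest decrease was in SBP65 (Solyc10g008040), annotated as a seed biotin-containing protein. It read 6.50, 6.39 and 5.26 in NTC and 3.89, 3.83 and 3.71 in BP178. NTC replicate 3 was more than 1 log2 unit below the other controls, and the groups were still 1.37 apart (FC 0.212, log2 FC -2.24, SE 0.23, adjusted p = 8.23e-05). A polygalacturonase of pectin breakdown (Solyc04g008230) read 6.32, 6.80 and 6.36 in NTC and 5.55, 4.83 and 4.87 in BP178 (FC 0.377, log2 FC -1.41, SE 0.20, adjusted p = 0.00195). Both calls held under all omissions, as did that of the uncharacterized Solyc08g067590, which read 3.71, 4.0 and 3.93 in NTC and 2.75, 2.66 and 2.63 in BP178 and dropped below the background line (FC 0.435, log2 FC -1.20, SE 0.16, adjusted p = 0.00134).

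An adenylylsulfate reductase (Solyc03g031620), the enzyme that commits sulfate to reduction, read 7.29, 7.40 and 7.45 in NTC and 5.93, 6.29 and 5.77 in BP178. The NTC arrays agreed within 0.16 log2 units (FC 0.383, log2 FC -1.39, SE 0.27, adjusted p = 0.0353). The factor AP2e (Solyc06g075510), of the AP2 family, read 7.81, 7.93 and 7.96 in NTC and 6.88, 7.01 and 6.61 in BP178 (FC 0.476, log2 FC -1.07, SE 0.18, adjusted p = 0.0105). The groups of both were apart, yet the call of the reductase ended under each of the 6 omissions, with an adjusted p of up to 0.19 without BP178 replicate 3, and that of AP2e without NTC replicate 2 (adjusted p = 0.0669), NTC replicate 3 (adjusted p = 0.0506) or BP178 replicate 3 (adjusted p = 0.0846).

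**Figure D4:**
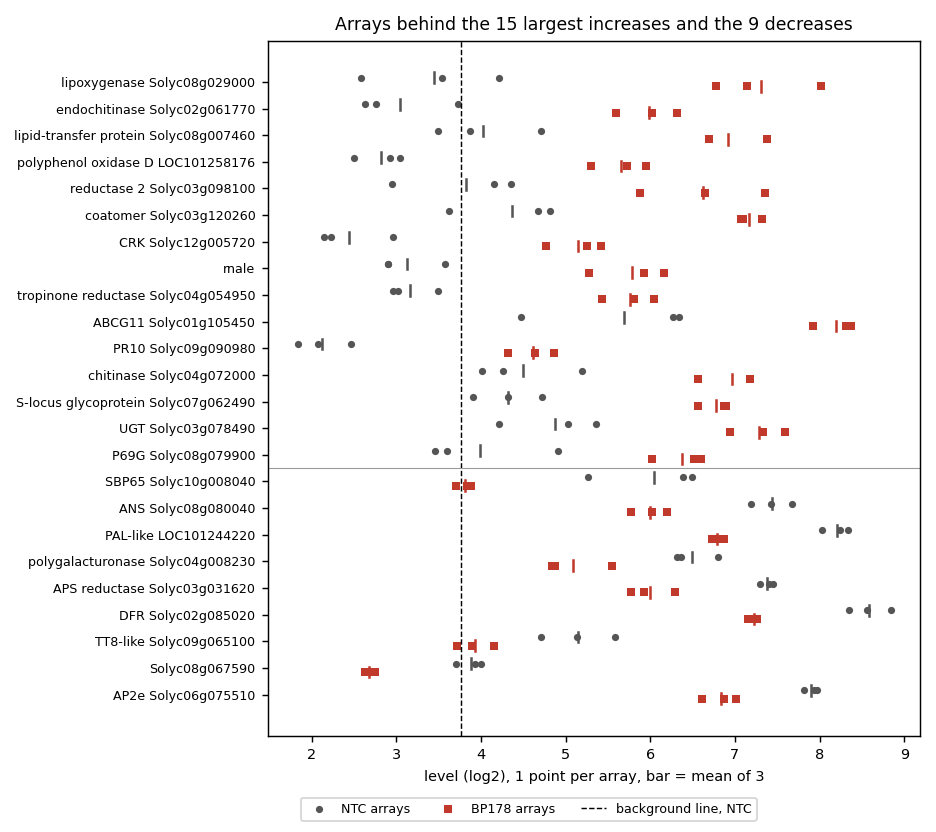
The log2 level of each of the 3 NTC arrays (grey circles) and 3 BP178 arrays (red squares) is shown for the 15 probe sets with the largest fitted FC (above the line between the blocks) and the 9 lowered ones (below it), with a bar at each mean and the NTC background line dashed. The groups do not overlap in any of the 24, and the NTC points of the upper block are more spread than the BP178 points for ABCG11 and the coatomer subunit.

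The control plants of both experiments differed at many of these transcripts, as the values below give. All 9 lowered probe sets were at least 1 log2 unit lower in NTC of experiment 2 than in NTC of experiment 1, and in 8 of them NTC of experiment 2 was also below BP178. DFR read 3.54, 3.51 and 2.95 in NTC of experiment 2, and ANS 2.51, 3.14 and 3.02, far below every array of experiment 1. Against both controls together, the log2 FC of DFR was 1.26 and that of ANS 0.84, that is, in the opposite direction. Among the 84 raised probe sets, 23 were at least 1 log2 unit lower in NTC of experiment 2 than in NTC of experiment 1, such as CHI3, which read 5.93, 6.22 and 6.12, and the glucanase LOC101261650, which read 5.68, 6.61 and 6.14. In 6 the control of experiment 2 was at least 1 unit higher, and in 4 it was at or above BP178. The ERF061-like transcript read 4.80, 5.48 and 5.43 in NTC of experiment 2, at or above its 3 BP178 arrays. The experiment and the state of its control plants cannot be told apart.

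Symbols listed for the ethylene pathway and for heat and endoplasmic reticulum stress gave 0 calls. Over all probe sets 0.124% rose and 0.0133% fell, so 0 calls in lists this short tell little. Of 14 symbols for ethylene receptors and signalling 0 rose and 0 fell, with a median log2 FC of 0.17, and 12 were above the line in either group. Of 9 for ethylene synthesis, on 10 probe sets, 0 rose and 0 fell, with a median of 0.11, and only 2 probe sets were above the line. ACC oxidase ACO4, the last step of ethylene synthesis, read 9.04, 8.79 and 8.91 in NTC and 9.39, 9.53 and 9.26 in BP178 on its brighter probe set. The groups did not overlap and the change did not pass (log2 FC 0.48, SE 0.17, adjusted p = 0.461). The chaperone BIP of the endoplasmic reticulum had a log2 FC of -0.06 (adjusted p = 0.98) at a level of 8.24. The cell death suppressors DAD1 and BI-1 had 0.47 and 0.37 (adjusted p = 0.448 and 0.553), each without overlap. The median over 7 heat shock proteins, only 2 of them above the line in either group, was 0.08. Over 9 photosynthesis genes it was -0.04, with 0 calls in either list. NIM1, the SA receptor NPR1 of tomato, and the JA receptor Coi1 had a log2 FC of 0.04 and 0.18 (adjusted p = 0.989 and 0.917), and the SA methyltransferase SAMT was at background (1.63 and 1.9). Trichome terpene synthases TPS16 and TPS17 were below the line, and the phloem sucrose transporter SUT1 had a log2 FC of 0.19 (adjusted p = 0.781).

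The response to flg15, measured against NTC of experiment 2, was set beside it, since flagellin fragments are sensed by plants as microbial molecules. The probe sets raised after flg15 were 148 (0.218%), and 33 of the 84 raised after BP178 (39.3%) were among them. The median log2 FC of the 84 was 1.51 after BP178, which chose them, and 0.68 after flg15. The difference between the responses was tested as one contrast, BP178 minus its NTC less flg15 minus its NTC. Over all probe sets, 22 (0.0325%) had a larger and 37 (0.0546%) a smaller response to BP178. The 84 were chosen as high after BP178, by values that enter this contrast. A lean to larger responses among them is therefore built in and is no test. Of the 84, 10 had a larger response to BP178, 2 a smaller one, and 72 did not pass. For these 72, a missed threshold does not show equal responses. The count of 59 over all probe sets was 27 without NTC of experiment 1 replicate 1, 109 without flg15 replicate 2, and 29 to 34 without BP178 replicate 2 or 3, NTC of experiment 2 replicate 2 or 3, or flg15 replicate 1. Of the 15 called probe sets with a difference, polyphenol oxidase D, the FAD-linked oxidase, ERF061-like, SBP65 and Solyc08g067590 kept it under each of the 12 omissions. Peptide and experiment cannot be told apart in this contrast.

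Among the 15 called probe sets whose difference passed, polyphenol oxidase D had the largest difference in favour of BP178 (2.58, SE 0.32, adjusted p = 0.00142, as BP178 minus flg15 in log2 FC). It read 2.94, 2.47 and 2.29 in NTC of experiment 2 and 2.86, 2.77 and 2.82 after flg15, so that it stayed at background there. The endochitinase Solyc02g061770 read 2.48, 2.21 and 2.74 and 2.57, 3.07 and 2.96 in the same arrays, also at background (2.55, SE 0.41, adjusted p = 0.0137). The adjusted p of this difference reached 0.0646 without NTC of experiment 1 replicate 1. The glycosyltransferase Solyc03g078490 differed by 2.43, SE 0.43, adjusted p = 0.0351 (up to 0.101 without NTC of experiment 2 replicate 3). The P450 Solyc09g066400 differed by 2.31, SE 0.39, adjusted p = 0.0213 (up to 0.0925 without NTC of experiment 1 replicate 1), and the FAD-linked oxidase by 2.26, SE 0.34, adjusted p = 0.00635. None of these 5 changed after flg15 beyond a log2 FC of 0.39.

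Among the factors, ERF061-like differed by 2.03, SE 0.28, adjusted p = 0.00357, and ERF5 by 1.56, SE 0.28, adjusted p = 0.0358 (up to 0.116 without NTC of experiment 2 replicate 3). The first was high in the control of experiment 2, as given above, while ERF5 read 7.72, 7.71 and 7.97 in that control and 7.18, 7.66 and 7.86 after flg15, much like NTC of experiment 1. The manganese transporter differed by 1.66, SE 0.30, adjusted p = 0.0382 (up to 0.125 without NTC of experiment 1 replicate 1). The probe set 20285639 differed by 1.44, SE 0.26, adjusted p = 0.0358 (up to 0.124 without NTC of experiment 2 replicate 2), and the acetyltransferase Solyc00g272810 by 1.19, SE 0.22, adjusted p = 0.0417 (up to 0.136 without NTC of experiment 2 replicate 2). On the other side, the glucanase differed by -1.69, SE 0.30, adjusted p = 0.0358 (up to 0.106 without flg15 replicate 1) and BCB by -2.12, SE 0.38, adjusted p = 0.0358 (up to 0.114 without NTC of experiment 1 replicate 1). Both rose after either peptide and started lower in experiment 2: BCB read 3.48, 3.72 and 3.81 in its control and 7.97, 7.67 and 7.41 after flg15. The mean after flg15 was 7.68, below the BP178 mean of 8.15. Of the 9 lowered, SBP65 (-2.06, SE 0.32, adjusted p = 0.0094), the TT8-like factor (-1.54, SE 0.28, adjusted p = 0.0358, up to 0.116 without NTC of experiment 2 replicate 3) and Solyc08g067590 (-1.48, SE 0.23, adjusted p = 0.00897) differed.

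**Figure D5:**
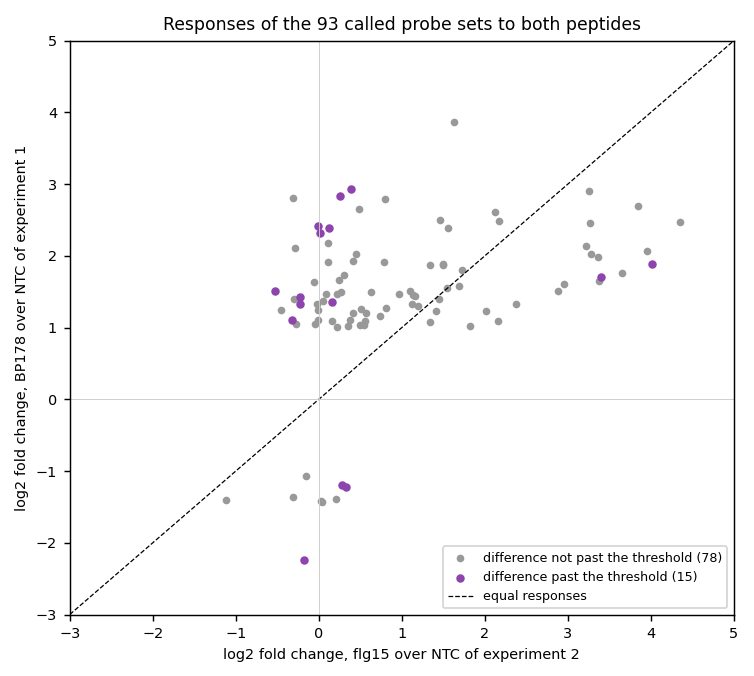
Each point is one of the 93 called probe sets, with the log2 FC after flg15 (over NTC of experiment 2) on the horizontal axis and after BP178 (over NTC of experiment 1) on the vertical axis, and a dashed line where both are equal. The 15 probe sets whose difference passed an adjusted p of 0.05 are purple: 10 raised ones lie near 0 after flg15 (log2 FC between -0.52 and 0.39), and BCB and the glucanase lie to the right of the line.

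The hormone treatments share the 3 NTC arrays with BP178, so their values are given beside it and no overlap is drawn. The numbers raised over the whole array were 1531 after SA (2.26%), 1109 after JA (1.64%) and 800 after ethylene (1.18%), and the numbers lowered were 1437 (2.12%), 1153 (1.7%) and 452 (0.667%). The lipoxygenase Solyc08g029000, with a log2 FC of 3.86 after BP178, had 0.44 after SA, 0.59 after JA and 2.17 after ethylene. Polyphenol oxidase D, with 2.84, had 0.03 after SA, 4.82 after JA and -0.09 after ethylene. The CRK, with 2.70, had 0.52 after SA, -0.19 after JA and 0.04 after ethylene, and PR10, with 2.48, had -0.01 after SA, 0.20 after JA and -0.00 after ethylene. The last pair had no hormone value with a log2 FC above 1, and after flg15 they had 3.84 and 2.17.

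The subtilases can be read in the same way, P69B with 1.87 after BP178 and -0.42 after SA, -0.28 after JA and 0.92 after ethylene, and P69G with 2.39 and 0.19 after SA, 0.06 after JA and 1.03 after ethylene. The endochitinase Solyc02g061770, with 2.94, had 5.59 after SA, 4.58 after JA and 0.65 after ethylene. ERF1a, with 1.74, had 3.31 after SA, 4.11 after JA and 4.90 after ethylene, and ER1, with 1.88, had 0.28 after SA, 4.41 after JA and 3.28 after ethylene. GGPS1, with 1.66, had 0.95 after SA, 0.14 after JA and 0.10 after ethylene. XTH6, with 1.16, had -0.10 after SA, -0.93 after JA and -1.27 after ethylene. The lowered DFR, with -1.36 after BP178, had -2.49 after SA, -2.78 after JA and -2.14 after ethylene.

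Several transcripts lay just outside the thresholds. An aspartic protease (Solyc08g068870, log2 FC 1.67, adjusted p = 0.0547), an expansin-like protein (Solyc08g077330, log2 FC 1.57, adjusted p = 0.0727), a MYB factor (Solyc02g087960, log2 FC 1.4, adjusted p = 0.0903) and a methionine sulfoxide reductase (Solyc02g063250, log2 FC 1.34, adjusted p = 0.083) had the FC and missed the adjusted p. The glucosyltransferase twi1 (log2 FC 0.83, adjusted p = 0.00361), malic enzyme ME2 (log2 FC 0.82, adjusted p = 0.0024), the aminotransferase GABA-TP1 (log2 FC 0.89, adjusted p = 0.0311) and a NAC factor (Solyc11g008010, log2 FC 0.93, adjusted p = 0.0089) passed the adjusted p with an FC below 2. On the lower side the galactinol synthase GolS2 missed the adjusted p (log2 FC -1.30, adjusted p = 0.0796). Just inside were the endochitinase LOC101261280 by its FC and CLF1 by its adjusted p.

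RT-qPCR had been run on a set of defense genes, and 7 of these were matched to a probe set here. P69G, the osmotin-like Solyc08g080660, BCB and ERF1a were raised, with the values above. The ethylene receptor ETR6 read 2.33, 2.53 and 2.40 in NTC and 2.19, 2.39 and 2.17 in BP178 (log2 FC -0.17, SE 0.27, adjusted p = 0.964). A WRKY factor (Solyc03g116890) read 2.28, 2.31 and 2.78 in NTC and 2.60, 2.72 and 2.60 in BP178 (log2 FC 0.18, SE 0.32, adjusted p = 0.971). A second harpin-induced protein (Solyc10g081980) read 2.27, 2.53 and 2.38 in NTC and 2.57, 3.03 and 2.38 in BP178 (log2 FC 0.26, SE 0.25, adjusted p = 0.913). The last 3 were below the background line on all 6 arrays, so a change in them could not be read at this signal. By RT-qPCR the paper reports a rise after BP178 in Solyc10g081980, as well as in P69G, the osmotin-like gene, BCB and ERF1a.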

How the data were processed

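Total RNA from tomato leaves was hybridised to the GeneChip Tomato Gene ST array. The deposited values are log2 signals per probe set that the authors computed by Robust Multichip Average (RMA), which corrects the background, equalises the distributions of the arrays and summarises the probes. The version of the RMA software (not given in the sources used here) could not be stated. Neither counts nor scanner intensities were used, so that precision rests on how many arrays there are. Groups came from the sample labels.

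All 21 arrays were fitted with one mean per group (limma 3.58.1, R 4.3.3, lmFit and eBayes), and p-values were adjusted by Benjamini-Hochberg over 67795 probe sets. BP178 was set against NTC of experiment 1, and its response against that of flg15 over NTC of experiment 2. Exact permutation of 3 against 3 arrays cannot go below p = 0.1. Each replicate is a pool of 10 plants, so the p-values measure the spread between pools. That spread is estimated over all 21 arrays, other treatments included. An SE can therefore differ from the spread seen in the arrays compared. On simulated data with 50 changed probe sets per size, the fit recovered 22, 45, 48 and 50 at log2 changes of 1, 1.5, 2 and 3, with 2 false calls. The simulated noise was independent between arrays and probe sets, and only brighter probe sets were changed. These counts therefore do not cover dim probe sets or deviations that many probe sets of an array share.

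Symbols came from the platform annotation: 23194 probe sets had one symbol, 170 several and 44431 none. Descriptions of 90 of the 93 called probe sets were read from the annotation column of the study's supplementary table, whose fold changes and p-values were not used, and 3 called probe sets had none. Every called probe set was placed in a function group and named where it had a description. Per-array values were planned for the 15 largest increases, all decreases, all called transcription factors and called members of the lists, and are also given for other members described here. Word searches planned over descriptions were replaced by 20 lists of gene symbols, since few probe sets had a description, and the markers of leaf, fruit, flower, trichome and phloem were likewise limited to symbols present. Members and lists were chosen with earlier results of these data known. Alternatives covered normalization, dim probe sets, the prior, array weights, the replicate block, the arrays and controls fitted, the thresholds, the background line and single omitted arrays.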

Additional observations from a re-analysis of the deposited data

Results flagged for a closer look

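The probe sets here were marked because the response to BP178, measured against NTC of experiment 1, differed from that to flg15, measured against NTC of experiment 2, by a test of the difference itself (limma, adjusted p below 0.05). Values are the log2 FC after BP178 minus the log2 FC after flg15. Shown are only the 15 that were also called after BP178, of 59 that passed this test over all probe sets. Of those 59, 22 had a larger and 37 a smaller response to BP178. The largest difference, -4.30 in Solyc04g015820, was in a probe set not called after BP178. Experiment and peptide cannot be told apart, and no cause was tested.

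Polyphenol oxidase D stood at 2.58, the endochitinase Solyc02g061770 at 2.55 and the glycosyltransferase Solyc03g078490 at 2.43. The P450 Solyc09g066400 stood at 2.31 and the FAD-linked oxidase Solyc02g079440 at 2.26. The factors ERF061-like and ERF5 stood at 2.03 and 1.56, the manganese transporter at 1.66, the unannotated probe set 20285639 at 1.44 and the acetyltransferase Solyc00g272810 at 1.19. On the other side the glucanase LOC101261650 stood at -1.69 and the blue copper protein BCB at -2.12. Among the lowered transcripts, SBP65 stood at -2.06, the TT8-like factor at -1.54 and Solyc08g067590 at -1.48. Leaving out single arrays ended the call in 10 of the 15, and polyphenol oxidase D, the FAD-linked oxidase, ERF061-like, SBP65 and Solyc08g067590 kept it under each of the 12 omissions.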

How the results depend on the processing

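The count of 84 raised probe sets became 41 with the 6 arrays fitted alone, 268 with NTC of both experiments as control, 49 at an adjusted p below 0.01, 158 at an FC of 2 with no test, and 47 to 80 without single arrays. The count of 9 lowered probe sets became 15 with array weights, 71 with both controls, 5 at an adjusted p below 0.01, 19 with no minimum FC, 51 at an FC of 2 with no test, and 6 to 12 without single arrays. The count of 59 that differed from flg15 became 116 with array weights, 25 at an adjusted p below 0.01, and 27 to 109 without single arrays. Of the raised probe sets, 52 instead of 31 lay under a line at 2 log2 units above the array median. With both controls the log2 FC of DFR turned to 1.26 and that of ANS to 0.84. The cause of these shifts was not tested, except that stricter or looser thresholds act by construction. Under the other alternatives each count stayed within 1.5 times its value: 74 to 119 raised, 7 to 13 lowered and 43 to 87 that differed from flg15.

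Samples share replicate numbers, but the deviations of arrays with the same number from their group means had correlations of 0.00, -0.03 and -0.18 between BP178 and NTC, so a shared number was not read as a pairing. With the replicate block 74 probe sets were raised, 69 of them among the 84, and 9 were lowered. Of the 96 named probe sets with alternatives, 80 kept their side of the threshold under the block. Probe sets left out by a filter on dim signals have no value there. Levels below the background line have no measured fold change, which limits 31 of the 84.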
